A study of Rattus norvegicus with 9 samples.

Results

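miR-21 is a microRNA whose hairpin precursor yields a guide arm, rno-miR-21-5p, and a passenger arm, rno-miR-21-3p. Both rows were taken by name from a deposited table of 765 mature rat miRNAs, so 2 of 765 rows are described here. The table holds small RNA sequencing of whole cornea in 9 libraries: 3 of allograft cornea, 3 of isograft cornea and 3 of normal cornea. All 9 are labelled Wistar rats aged 6 weeks after birth, allografts included. By the meaning of the words, donor and host differ genetically in an allograft and match in an isograft. Donor strain, host strain, time after surgery and rejection state are not given in the labels. A library is called here by its group and its title's number (12, 34 or 56). Whether 3 libraries of a kind stand for 3 animals is not labelled, so the p-values speak for the spread among libraries, which may be technical.

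As background, miR-21 is transcribed from its own promoter, and in human cells that promoter responds to AP-1 and STAT3. Drosha and Dicer cut the hairpin, the guide arm enters Argonaute and lowers targets such as Pdcd4 and Sprouty mRNAs, and most of the passenger arm is degraded. The guide arm is known for its induction in inflammation, wound healing and fibrosis. In the RefSeq rat gene table (assembly GRCr8), Vmp1, the gene of a membrane protein, is next to Mir21 on one side by order of start. Tubd1, a tubulin gene, is next on the other side.

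The hairpin is shown because both measured molecules are cut from it, with the arms in capitals. RefSeq places it on the minus strand at chr10:71902600-71902691 of GRCr8. The processing notes name the older build rn6, and no coordinate of that build is given here.
Mir21 hairpin: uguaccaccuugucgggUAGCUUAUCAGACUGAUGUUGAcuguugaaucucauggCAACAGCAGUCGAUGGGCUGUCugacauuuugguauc
The 92-base hairpin holds the guide arm at bases 18 to 39 and the passenger arm at bases 56 to 77. Each arm is 22 bases long. The arms are given again with the seed, bases 2 to 8, which pairs with target mRNAs, in capitals.
rno-miR-21-5p: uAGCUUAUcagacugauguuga
rno-miR-21-3p: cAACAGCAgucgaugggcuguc
Among 694 mature rat entries of RefSeq, 0 others carry the seed of either arm. Of the 765 miRNAs of the table, 690 had a sequence there. The guide arm begins with U and the passenger arm with C. In the 48 hairpins with both arms tested and both sequences known, the more abundant arm began with U in 54.2% and the less abundant arm in 22.9%.

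Values are RPM, a miRNA's reads for every 1000000 reads of its library. Each value was a whole multiple of 1 read, so reads could be recovered, and the libraries held between 11001459 and 12153889 reads. Listed miRNAs held 26.4 to 46.3% of the reads in allografts, 36.8 to 54.5% in isografts and 46.6 to 65.6% in normal corneas, so RPM also depends on the reads outside the list. Isograft 12 stood apart. Its counts differed from those of isografts 34 and 56 by a chi-square per degree of freedom of 894 and 871, against 77.2 between those libraries. Allograft 34 had the lowest share of listed miRNAs, and results that rest on either library are also given without it. Corneal epithelium markers were present in every group, with 11 of 11 listed markers above 0, led by miR-184. Of the 765 miRNAs, 281 reached at least 5 RPM in at least 3 libraries and were tested.

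The guide arm was the most abundant miRNA of the allografts. It stood at 101991, 89617 and 144610 RPM in allografts 12, 34 and 56. In isografts 12, 34 and 56 it stood at 29201, 71854 and 62369 RPM, and in normal corneas 12, 34 and 56 at 6675, 9814 and 8286 RPM. No library of one group overlapped another group, and isograft 12 was the low value among grafts. These values rest on 986203 to 1591471 reads in allografts, 354909 to 790495 in isografts and 73518 to 108018 in normal corneas, so counting error is small beside the spread between libraries. In allograft 12, for example, the 95% exact binomial interval ran from 101813 to 102170 RPM.

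**Figure D1:**
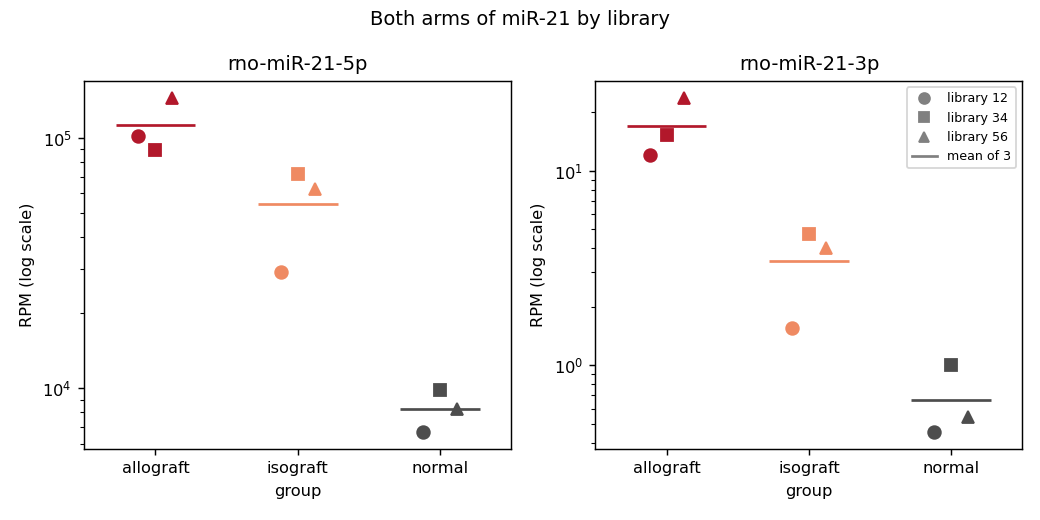
RPM on a log axis of the guide arm (left) and the passenger arm (right) in each library by group, with the symbol giving the number in the title and the line the mean of 3. Groups do not overlap for either arm, and isograft 12 is the lowest isograft in both panels, at 29201 RPM for the guide arm and 1.56 RPM for the passenger arm.

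Guide arm means were 112073 RPM ± 28849 in allografts, 54475 RPM ± 22395 in isografts and 8258 RPM ± 1569 in normal corneas (SD, n = 3 each). The mean was 13.6 times higher in allografts than in normal corneas. It was 6.60 times higher in isografts than in normal corneas, and 2.06 times higher in allografts than in isografts. In cornea sampled whole, more cells with miR-21 and more miR-21 per cell cannot be told apart.

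On the log2(RPM + 1) scale the guide arm rose by 3.75 in allografts against normal corneas (SE 0.34, limma, Benjamini-Hochberg adjusted p = 2.5e-10). This was the 12th largest fold change of the 281, where 23.1% of miRNAs passed as higher and 29.9% were higher with no overlap between groups. In isografts against normal corneas it rose by 2.64 (SE 0.34, adjusted p = 4.2e-07, limma), in place 14, where 16.7% passed as higher and 22.4% were higher with no overlap. Both comparisons share the normal corneas. In allografts against isografts the rise was 1.11 (SE 0.34, adjusted p = 0.0129, limma), in place 35, where 13.5% passed as higher and 16.4% were higher with no overlap. That last call rests on isograft 12: without it the difference was 0.71 (SE 0.36, adjusted p = 0.0851, limma). All 3 allografts remained above both other isografts, but how many other miRNAs were so separate was not counted. Without isograft 12 and allograft 34 together the guide arm's difference was 0.86 (SE 0.32, adjusted p = 0.0193, limma).

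Over all 281 miRNAs, the median change on this scale was -0.14 for allografts against normal corneas, 0.05 for isografts against normal corneas and -0.29 for allografts against isografts. Other ways of scaling the libraries moved these medians to between -0.56 and 0.55, -0.22 and 0.35, and -0.44 and 0.10. With RPM the guide arm stood 3.89, 2.59 and 1.41 above the median and the passenger arm 3.53, 1.29 and 2.34, in the same order. Rescaling a library shifts all of its miRNAs alike, so these distances are nearly fixed by construction and do not bear on the choice of scaling. The split of calls did depend on it: 65 higher and 68 lower in allografts against normal corneas by RPM became 141 and 44 when each library was scaled to its listed miRNAs, and 51 and 104 when miR-184 was left out of RPM.

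**Figure D2:**
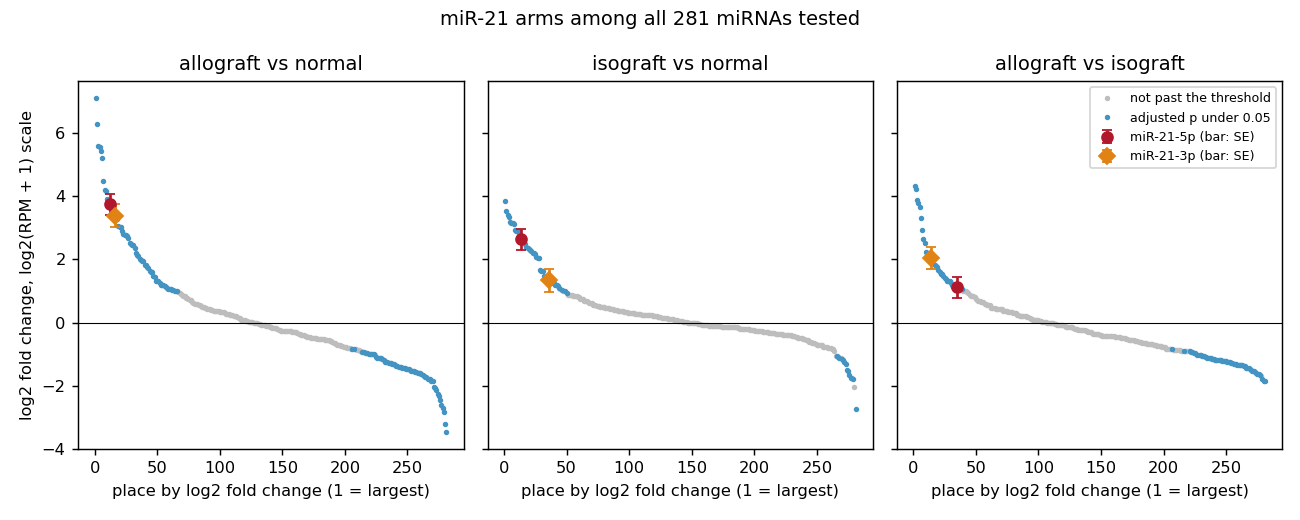
Log2 fold changes of all 281 tested miRNAs in falling order for the 3 comparisons, with miR-21-5p (circle) and miR-21-3p (diamond) marked and bars of 1 SE. The guide arm sits further left, among larger changes, than the passenger arm against normal corneas, and the passenger arm further left in allografts against isografts, in place 14 against place 35. In allografts against normal corneas this order rests on the 1 RPM added. There edgeR on recovered reads gave 4.75 for the passenger arm and 3.88 for the guide arm, and in isografts against normal corneas 2.16 and 2.55.

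By gain in mean RPM, rather than by fold, the guide arm was first in each comparison. Between allografts and normal corneas 308 miRNAs gained in mean RPM, and the guide arm alone made up 77.1% of the summed gain, 103814 of 134670 RPM. The next gains were those of miR-143-3p, a miRNA of smooth muscle and fibroblasts, at 5759 RPM (4.28%), and miR-146a-5p, a brake on NF-kB signalling, at 3421 RPM (2.54%). In isografts against normal corneas the guide arm made up 48.4% of the summed gain of 349 miRNAs, 46217 of 95437 RPM, followed by miR-143-3p at 10317 RPM and miR-199a-3p, a mesenchymal miRNA, at 4842 RPM. Between allografts and isografts it made up 79.1% of the summed gain of 241 miRNAs, followed by miR-146a-5p at 2586 RPM and miR-146b-5p, its relative, at 2021 RPM. These gains are differences of group means and depend on the RPM denominator.

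As a share of the listed miRNAs, the guide arm took 30.05, 33.9 and 31.2% in allografts 12, 34 and 56. It took 7.93, 13.2 and 12.8% in isografts 12, 34 and 56, and 1.43, 1.497 and 1.36% in normal corneas 12, 34 and 56. Intervals for counting error were narrow, such as 33.8 to 33.9% in allograft 34 (95% exact binomial). The groups did not overlap, and the allografts were close to each other. How many other miRNAs were as separate by share was not counted. With libraries scaled to listed miRNAs, 141 of the 281 tested passed as higher in allografts against normal corneas by limma. The other counts were 106 in isografts against normal corneas and 85 in allografts against isografts. Mean shares were 31.7% ± 1.97 in allografts, 11.3% ± 2.92 in isografts and 1.43% ± 0.0664 in normal corneas (SD, n = 3 each). The differences were 30.3 percentage points for allografts against normal corneas, 9.86 for isografts against normal corneas and 20.4 for allografts against isografts. Each had a two-sided exact permutation p = 0.1, the smallest that 3 libraries against 3 can give.

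The spread within a group was smaller for the share than for RPM in each group. The coefficient of variation was 6.22% for the share against 25.7% for RPM in allografts, 25.9% against 41.1% in isografts and 4.64% against 19.0% in normal corneas. The share moves with miR-184, the dominant miRNA of corneal epithelium, which fell in the grafts. miR-184 took 13.4, 9.36 and 11.8% of listed miRNAs in allografts 12, 34 and 56. It took 36.6, 26.4 and 27.0% in isografts 12, 34 and 56, and 46.0, 51.8 and 51.4% in normal corneas 12, 34 and 56. All other listed miRNAs together held 56.6 to 57.0% in allografts, 55.4 to 60.5% in isografts and 46.7 to 52.6% in normal corneas. With miR-184 left out of the total, the guide arm took 35.8% ± 1.41 in allografts, 16.0% ± 3.00 in isografts and 2.85% ± 0.232 in normal corneas (SD, n = 3 each).

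**Figure D3:**
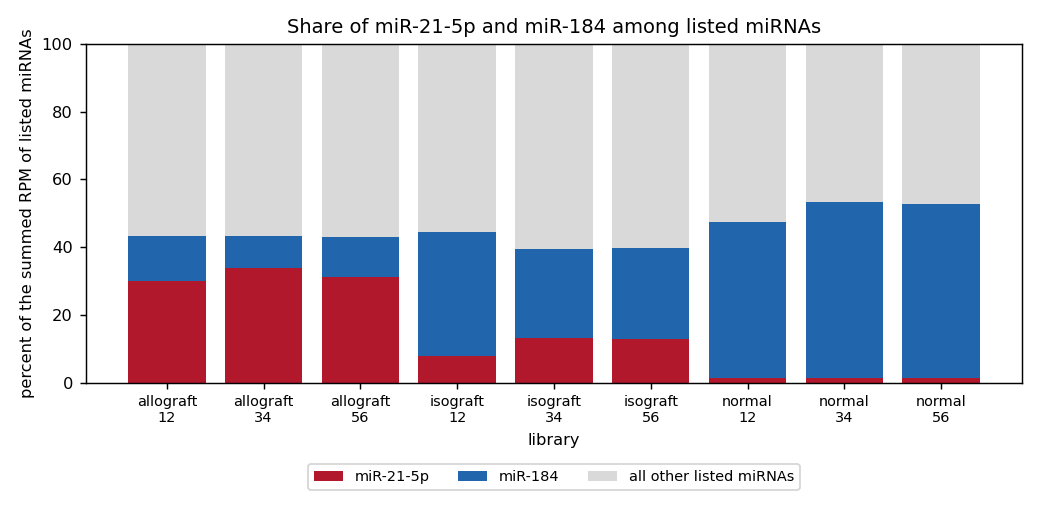
Stacked percent of the summed RPM of listed miRNAs taken by miR-21-5p, miR-184 and all other miRNAs in each library. The guide arm takes 30.05 to 33.9% in allografts, 7.93 to 13.2% in isografts and 1.36 to 1.497% in normal corneas, while the bands of miR-21-5p and miR-184 change places.

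In rank, the guide arm was first in all 3 allografts, with miR-184 in second place. It was second to miR-184 in all 3 isografts, and 13th, 11th and 13th in normal corneas 12, 34 and 56. Reads of guide arm per read of miR-184, a ratio free of the RPM denominator, were 2.25, 3.62 and 2.65 in allografts 12, 34 and 56. They were 0.216, 0.4999 and 0.473 in isografts 12, 34 and 56, and 0.0311, 0.0289 and 0.0266 in normal corneas 12, 34 and 56. The ratio thus crossed 1 in allografts. Levels of different miRNAs also carry the ligation bias of library preparation, so the crossing point is a property of these libraries. Apart from both, the most abundant miRNA of each library was miR-148a-3p or miR-203a-3p, a miRNA of stratified epithelium. The guide arm exceeded the higher of them 4.36 to 7.52 times in allografts and 1.30 to 2.98 times in isografts. In normal corneas it reached 0.269 to 0.282 of that level.

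The passenger arm rose as well, from a far lower level. It stood at 11.99, 15.2 and 23.7 RPM in allografts 12, 34 and 56, which are 132, 167 and 261 reads. In isografts 12, 34 and 56 it stood at 1.56, 4.73 and 3.998 RPM, which are 19, 52 and 44 reads, and in normal corneas 12, 34 and 56 at 0.454, 0.999 and 0.545 RPM, which are 5, 11 and 6 reads. The groups did not overlap, though with 5 reads the 95% exact interval of normal 12 ran from 0.147 to 1.06 RPM, and a count of 3 reads is 0.247 to 0.273 RPM. Of the 281 tested miRNAs, 29.9% were higher with no overlap in allografts against normal corneas. The share was 22.4% in isografts against normal corneas and 16.4% in allografts against isografts. Its rank among the listed miRNAs was 177 to 199 in allografts, 272 to 304 in isografts and 332 to 369 in normal corneas.

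Passenger arm means were 17.0 RPM ± 6.06 in allografts, 3.43 RPM ± 1.66 in isografts and 0.666 RPM ± 0.292 in normal corneas (SD, n = 3 each). The ratio of means was 25.5 for allografts against normal corneas, 5.15 for isografts against normal corneas and 4.95 for allografts against isografts. The arm reached 5 RPM in the 3 allografts alone and entered the test through them, so its differences from that group were in part set by the filter. On the log2(RPM + 1) scale, which understates changes of so low a miRNA, the passenger arm rose by 3.39 in allografts against normal corneas (SE 0.36, adjusted p = 6.2e-09, limma). The rise was 1.34 in isografts against normal corneas (SE 0.36, adjusted p = 0.00637, limma), and 2.05 in allografts against isografts (SE 0.36, adjusted p = 8.6e-05, limma). Over all 281 miRNAs 23.1%, 16.7% and 13.5% passed as higher in these 3 comparisons. On the recovered reads edgeR, which needs no pseudocount of that size, gave log2 fold changes of 4.75, 2.16 and 2.59 in the same order (adjusted p = 5.2e-07, adjusted p = 0.00046 and adjusted p = 2.7e-05). For the guide arm edgeR gave 3.88, 2.55 and 1.33, close to the values above.

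How unequal the arms were is plain from the reads. For each passenger read there were 8503, 5905 and 6098 guide reads in allografts 12, 34 and 56. There were 18679, 15202 and 15601 in isografts 12, 34 and 56, and 14704, 9820 and 15202 in normal corneas 12, 34 and 56. The allografts had the lowest ratios. How many other hairpins were as separate was not counted. The counting interval of allograft 12, 7170 to 10163, overlapped that of normal 34, 5488 to 19672 (95% exact binomial). The lowest isograft and the highest normal cornea differed by less than 1 in this ratio, far within the counting intervals of 11592 to 20355 in isograft 34 and 6984 to 41425 in normal 56 (95% exact binomial). Passenger reads for every 1000000 reads of both arms were 118, 169 and 164 in allografts 12, 34 and 56, against 53.5 to 65.8 in isografts and 65.8 to 102 in normal corneas. With the reads of a group summed, the ratio was 6607 in allografts (95% exact interval 6082 to 7191), 15929 in isografts (13270 to 19294) and 12397 in normal corneas (8188 to 19783), where the interval covers counting error only and the normal corneas hold 22 passenger reads in all.

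**Figure D4:**
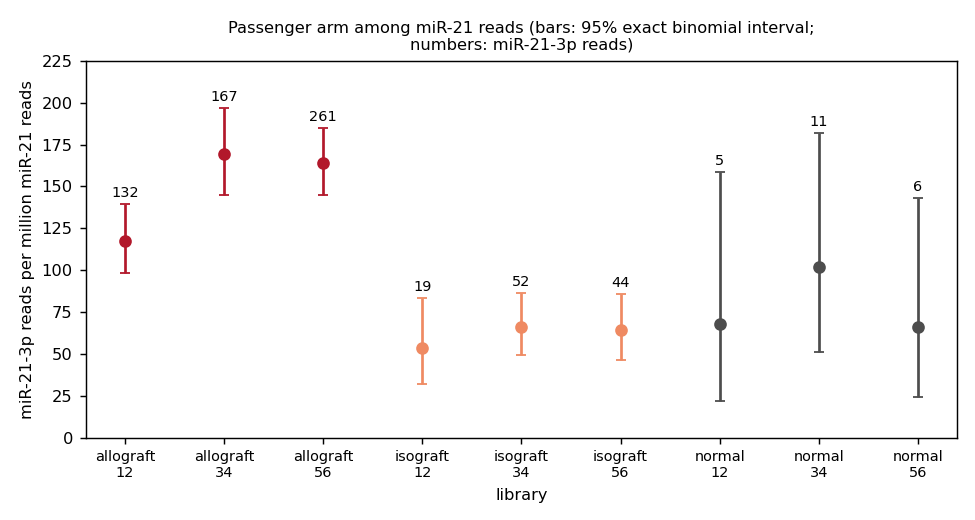
Passenger arm reads for every 1000000 reads of both miR-21 arms in each library, with 95% exact binomial intervals that cover counting error only and the number of passenger reads above each point. Allografts lie at 118 to 169, isografts at 53.5 to 65.8 and normal corneas at 65.8 to 102, the last with intervals as wide as 22.1 to 159.

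The test of the arm ratio depended on the amount added before the logarithm, because 1 RPM exceeds the whole passenger signal of normal corneas. With 1 RPM added, the log2 ratio of guide to passenger averaged 12.6 in allografts, 13.6 in isografts and 12.3 in normal corneas. The difference was 0.36 for allografts against normal corneas (SE 0.18, adjusted p = 0.168, limma over 62 hairpins with both arms tested), 1.29 for isografts against normal corneas (SE 0.18, adjusted p = 0.000871) and -0.94 for allografts against isografts (SE 0.18, adjusted p = 0.00842). In these comparisons 25.8%, 4.84% and 8.06% of the hairpins passed in either direction. The miR-21 hairpin is among the 62 because its passenger arm passed the filter in the allografts alone. Its differences between allografts and the other groups are therefore in part set by the filter. With 0.5 read added to each arm, a setting chosen after the values were seen, the differences were -0.85 (SE 0.22, adjusted p = 0.0319, limma), 0.42 (SE 0.22, adjusted p = 0.340) and -1.27 (SE 0.22, adjusted p = 0.00665). Of the 62 hairpins 17.7%, 0% and 3.23% then passed, and for the 0 of isografts against normal corneas 9 hairpins had an unadjusted p under 0.05. The direction for allografts against normal corneas thus turned with the pseudocount, and the isograft difference was past the threshold with 1 RPM added and not with 0.5 read.

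Relative to isografts, the allograft ratio was lower with 1 RPM, 0.1 RPM or 0.5 read added, a direction that the filter favours. With 10 RPM added, which is above the passenger arm's level in every isograft and normal cornea, the difference was 0.12 (adjusted p = 0.743, limma). For isografts against normal corneas 10 RPM gave 2.31 (SE 0.25, adjusted p = 3.1e-05, limma). Without allograft 34 the difference with 1 RPM added was -0.84 (SE 0.21, adjusted p = 0.0509, limma). Exact permutation tests on the ratio of reads with nothing added gave log2 differences of -0.95 for allografts against normal corneas, 0.34 for isografts against normal corneas and -1.28 for allografts against isografts, each with a two-sided p = 0.1, the smallest possible.

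**Figure D5:**
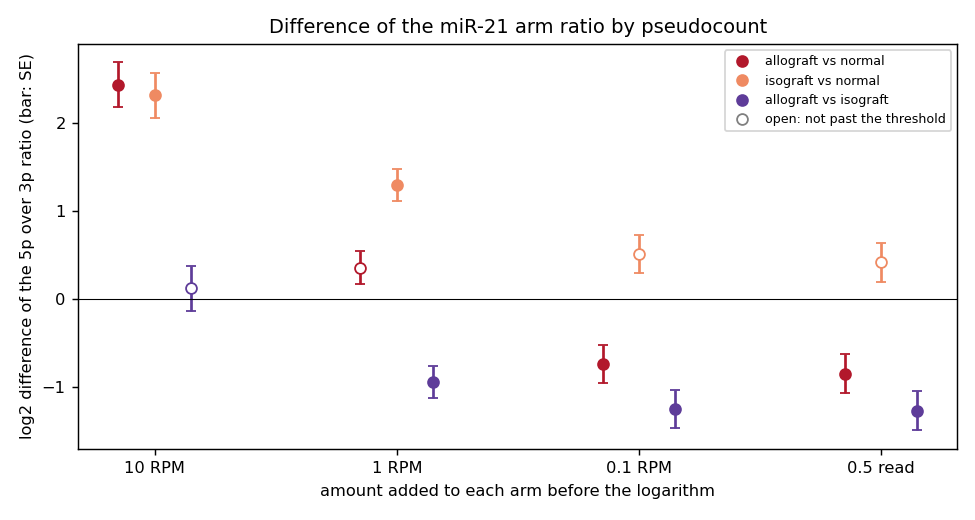
Difference of the log2 guide over passenger ratio of miR-21 for 3 comparisons, with 10 RPM, 1 RPM, 0.1 RPM or 0.5 read added to each arm, bars of 1 SE and open symbols where the adjusted p was not under 0.05. The difference for allografts against normal corneas runs from 2.43 with 10 RPM to -0.85 with 0.5 read, and that for allografts against isografts from 0.12 to -1.27.

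Among the 62 hairpins with both arms tested, miR-21 had the most unequal arms, at 8328 guide reads per passenger read over all 9 libraries. The next were miR-27b, with 908 reads of its 3p arm per read of its 5p arm, and miR-30d, with 442 reads of its 5p arm per 3p read. This place rests on the filter. Among all 262 hairpins with both arms listed and any read, miR-21 was 7th when a minor arm under 3 reads was counted as 3. It stood behind let-7g, miR-203a, miR-26a, miR-101b, miR-320 and miR-186, whose minor arms were too low to test. That floor also set the place: a hairpin with 13748 reads of its 5p arm and 0 of its 3p arm stood below miR-21 through it. The largest differences of the arm ratio in allografts against normal corneas, with 1 RPM added, were those of miR-503 at 2.16 (SE 0.40), miR-322 at 1.82 (SE 0.25) and miR-150 at 1.64 (SE 0.26). By size of the difference with 1 RPM added, miR-21 stood 35th of 62 in allografts against normal corneas, 1st in isografts against normal corneas and 5th in allografts against isografts, places that rest on the pseudocount as its differences do.

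The miRNAs whose levels ran most like the guide arm over the 9 libraries, by Pearson's r on log2(RPM + 1) among the 281, were miR-146a-5p (r = 0.978), miR-223-3p (0.974), miR-511-3p (0.966), miR-139-5p (0.955) and miR-155-5p (0.954). miR-223-3p is a myeloid miRNA, miR-511-3p lies in the macrophage mannose receptor gene, and miR-155-5p is induced on immune cell activation. For the passenger arm they were miR-142-5p, a miRNA of all blood lineages (0.991), miR-511-3p (0.990), miR-146a-3p (0.988), miR-146b-3p (0.988) and miR-532-5p (0.987). The arms correlated with each other at 0.939, which put the passenger arm in place 15 for the guide arm and the guide arm in place 25 for the passenger arm. These r describe 9 libraries that fall into 3 separate groups, so they are values of likeness between groups as much as between libraries. Levels of miR-146a-5p averaged 3660 RPM ± 1174 in allografts, 1075 RPM ± 400.1 in isografts and 239 RPM ± 5.33 in normal corneas (SD, n = 3 each), and those of miR-142-5p 370 RPM ± 149 in allografts, 27.0 RPM ± 12.02 in isografts and 3.51 RPM ± 0.516 in normal corneas.

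Other miRNAs linked to NF-kB, STAT3, AP-1 or CREB signalling formed a list of 19, of which 16 were tested. The list was chosen with earlier results of these data known, so its counts beside those of all miRNAs are a description. In allografts against normal corneas 6 of the 16 rose and 2 fell, with a median log2 fold change of 0.03 against -0.14 over all 281, of which 23.1% passed as higher and 24.2% as lower. The largest rise was that of miR-223-3p at 5.60 (SE 0.41). Next came miR-155-5p at 5.43 (SE 0.39), followed by miR-146a-5p with 3.88 (SE 0.36) and its relative miR-146b-5p with 3.61 (SE 0.34). miR-132-3p, a CREB target, and miR-147, induced by Toll-like receptors in mouse macrophages, also rose, and miR-31a-5p, an epithelial miRNA, and miR-125b-5p fell. In isografts against normal corneas 6 of the 16 rose, with a median of 0.65 against 0.05 over all 281, of which 16.7% passed as higher and 4.63% as lower. Scaled to listed miRNAs, 11 rose in allografts and 10 in isografts against normal corneas. Set against isografts, allografts had 5 higher and 3 lower, with a median of -0.22 against -0.29 over all 281, of which 13.5% passed as higher and 21% as lower. The 3 lower became 0 without allograft 12, allograft 34 or isograft 34, 1 without isograft 56, and 5 without allograft 56 or isograft 12. miR-146a-5p, miR-146b-5p, miR-155-5p, miR-223-3p and miR-132-3p rose in both graft types, as the guide arm did. miR-221-3p, an AP-1 target, stood at -0.57 (SE 0.39) in allografts against normal corneas and miR-24-3p at -0.05 (SE 0.39), neither past the threshold. The list's median in allografts against normal corneas was -0.40 when miR-184 was left out of RPM and -0.20 without allograft 56, and in allografts against isografts it was 0.01 and 0.19 with scaling by the median of ratios and by the sum of listed miRNAs.

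A list of 17 miRNAs linked to scarring and to TGF-beta, the growth factor that activates fibroblasts, had 15 tested members. It too was chosen with earlier results of these data known, so its counts are a description. In allografts against normal corneas 7 rose and 3 fell, with a median of 0.48, beside 23.1% higher and 24.2% lower over all 281. The largest were those of miR-143-5p at 2.79 (SE 0.43), miR-143-3p at 2.46 (SE 0.37), miR-503-5p at 2.21 (SE 0.48) and miR-145-3p at 1.98 (SE 0.42), of which the miR-143 and miR-145 arms mark smooth muscle and fibroblasts. In isografts against normal corneas 7 rose and 1 fell, the muscle miRNA miR-133a-3p, with a median of 0.74, beside 16.7% higher and 4.63% lower over all 281. Between allografts and isografts 2 passed, miR-145-5p and miR-199a-3p, both lower, with a median of -0.61, beside 13.5% higher and 21% lower over all 281, while both miR-21 arms were higher. Those 2 became 0 without allograft 34 or isograft 34, 6 without allograft 56 and 8 without isograft 12, and scaling to listed miRNAs gave 2 higher and 0 lower instead.

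In human cells SMAD proteins activated by TGF-beta are known to bind the letters CAGAC in the hairpin of miR-21 and to raise its processing. The guide arm holds these letters at bases 9 to 13. They occur in 13 of 694 mature rat sequences (1.87%) and in 5 of the 252 tested miRNAs with a sequence (1.98%), and their reverse complement GUCUG in 30 of 694 (4.32%). The guide arm is set beside the 2 mesenchymal carriers, with the letters in capitals. These 2 were picked after their values were seen, because all 3 rose in isografts against normal corneas. In that comparison 16.7% of the 281 passed as higher. A role of the letters in these data was not tested.
rno-miR-21-5p: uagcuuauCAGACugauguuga
rno-miR-199a-5p: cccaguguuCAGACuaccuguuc
rno-miR-214-3p: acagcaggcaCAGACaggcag
miR-199a-5p averaged 1770 RPM ± 654.3 in allografts, 3547 RPM ± 1781 in isografts and 1417 RPM ± 83.2 in normal corneas (SD, n = 3 each). It rose by 1.17 in isografts against normal corneas (SE 0.38, adjusted p = 0.0283, limma) and in allografts its difference from normal corneas was 0.26 (SE 0.38, adjusted p = 0.599). miR-214-3p, from the same transcript, averaged 98.3 RPM ± 37.7 in allografts, 201 RPM ± 82.4 in isografts and 40.4 RPM ± 2.49 in normal corneas, and rose against normal corneas by 1.19 in allografts (SE 0.41, adjusted p = 0.0172, limma) and by 2.19 in isografts (SE 0.41, adjusted p = 0.000104, limma). Both means were highest in isografts, while that of miR-21-5p was highest in allografts. The other tested carriers, miR-421-3p and miR-3559-5p, were past the threshold in none of the 3 comparisons by limma, with log2 fold changes between -0.52 and 0.35. A match is a description of letters and not a binding site.

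Leukocyte markers had the same order of groups as miR-21, epithelial markers the reverse order, and stromal and endothelial markers were highest in isografts by their medians. The summed RPM of 10 leukocyte miRNAs, 10 of 10 above 0 in each group, was 2420 to 4184 in allografts, 182 to 361 in isografts and 60.3 to 72.5 in normal corneas. That of 11 epithelial miRNAs, led by miR-184, was 37993 to 92422 in allografts, 161897 to 196874 in isografts and 274086 to 424262 in normal corneas. The sum of 8 stromal miRNAs was 12224 to 23197 in allografts, 18846 to 38859 in isografts and 9767 to 12023 in normal corneas. For the 2 arms of endothelial miR-126a it was 2955 to 4874 in allografts, 2095 to 6150 in isografts and 346 to 857 in normal corneas, and for 4 red blood cell miRNAs 18.5 to 1068 in allografts, 14.0 to 181 in isografts and 82.4 to 343 in normal corneas. The red blood cell sums of 1068 and 181 are those of allograft 34 and isograft 12 alone. Without them the sums were 18.5 and 19.7 in allografts and 14.0 and 29.1 in isografts. miR-155-5p and miR-223-3p stand in both the leukocyte list and the list of induced miRNAs. The marker lists too were chosen with earlier results of these data known. The part of these cell types in the miR-21 result was not tested.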

How the data were processed

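Per the labels' protocols, RNA was taken from corneas with Trizol and 1 ug of total RNA went into Illumina TruSeq small RNA libraries. The deposited table holds RPM values by the authors, with each column matched to a library by its title and 0 left over. The submitters' processing notes name bcl2fastq, BWA and rn6; the sources used here give no versions, trimming, annotation or rule for reads that match several places. The recovered reads came out whole within 0.1 read for 100% of values. Without molecular identifiers, reads of 1 molecule can be counted repeatedly, so intervals and floors hold for counting error alone.

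The filter was 5 RPM or more in 3 or more libraries. Testing was on log2(RPM + 1) with limma 3.58.1 (R 4.3.3) over all 9 libraries, with a mean-variance trend, 6 residual degrees of freedom and a threshold of 0.05 on Benjamini-Hochberg adjusted p. Arm ratios were fitted likewise over 62 hairpins, with the mean level of both arms as the trend's covariate. Shares were compared by exact two-sided permutation. edgeR 4.0.16 and DESeq2 1.42.0 were run on recovered reads as alternatives. The model was tested on simulated data. Baseline mean levels there were set above that of the passenger arm in normal corneas, so the simulation does not cover so low an arm. Members and lists were chosen with earlier results of these data known. Beside both arms, miRNAs were named by rule: list members with the largest changes, the most alike, the most abundant, those with the largest gains and the hairpins with the largest arm changes; the carriers of CAGAC, miR-27b and miR-30d, the hairpins more unequal than miR-21, miR-221-3p and miR-24-3p were named after their values were seen. Sequences are from RefSeq (GRCr8).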

Additional observations from a re-analysis of the deposited data

How the results depend on the processing

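The guide arm kept its direction in all alternatives run, which leaving out libraries could not change because its groups did not overlap in RPM. Against normal corneas it also stayed past the threshold in all 23, with log2 fold changes of 3.32 to 4.47 in allografts and 2.35 to 3.04 in isografts. In allografts against isografts it passed in 22 of 23, and leaving out each library gave 0.71 to 1.36, the lowest without isograft 12. The passenger arm passed in 22 of 22 alternatives for allografts against normal corneas and for allografts against isografts, and in 21 of 22 for isografts against normal corneas, where 10 RPM added gave 0.33 (adjusted p = 0.167). It enters the test through the allografts alone, so its counts of passes against allografts are in part set by the filter and show no stability. The allograft differences in arm ratio are in part set by the filter too. Neither the passenger arm nor the arm ratio could be fitted with a minimum of 50 RPM. The arm ratio in allografts against normal corneas was 0.36 with 1 RPM added, -0.73 with 0.1 RPM, 2.43 with 10 RPM, -0.85 with 0.5 read and -0.95 on reads with nothing added. In isografts against normal corneas it was 1.29 with 1 RPM, by exact permutation too (p = 0.1), 2.31 with 10 RPM, 0.51 with 0.1 RPM, 0.42 with 0.5 read and 0.34 with nothing added. In allografts against isografts it was -0.94 with 1 RPM, by exact permutation too (p = 0.1), 0.12 with 10 RPM, -1.28 with nothing added and -0.84 to -1.09 with each library left out. The arm ratio settings with 0.5 read added and with nothing added were chosen after seeing the data. Differences in share kept their direction in 10 of 10 alternatives each. The groups did not overlap in share, so leaving out libraries or taking log2 could not turn the direction and shows no stability. All miRNAs past the threshold numbered 133, 60 and 97 for allografts against normal corneas, isografts against normal corneas and allografts against isografts. They numbered 63, 30 and 44 at 50 RPM, 115 and 168 in the last 2 comparisons with scaling by the median of ratios, 114 and 163 with edgeR, 119 and 171 with DESeq2, 120 in isografts against normal corneas by shares of listed miRNAs, and 52 and 147 in allografts against isografts without allograft 34 and without isograft 12. Correlations of deviations were -0.51 to 0.56 over 9 same-numbered pairs of libraries and -0.72 to 0.60 over 18 other pairs. Ranges so wide cannot tell whether the numbers mark pairs, and the main test did not use them. With the replicate block the guide arm's differences were still 3.75, 2.64 and 1.11, the calls of both arms held, and 143, 66 and 112 miRNAs passed. Depth limits the passenger arm in normal corneas, at 5 to 11 reads.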
